A study of Mus musculus with 6 samples.

Results

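Mitochondrial DNA of the mouse encodes a small set of proteins, all of them subunits of the respiratory chain or of ATP synthase. The 10 genes described here are mt-Nd1, mt-Nd2, mt-Nd4, mt-Nd5, mt-Nd6, mt-Cytb, mt-Co1, mt-Co2, mt-Co3 and mt-Atp6. Each is a single exon without introns. They were taken by their GENCODE M21 symbol from the table of gene counts, which holds 55450 genes, and they are 10 of the 13 protein genes and 37 genes in all that the annotation places on mitochondrial DNA. Counts came from mammary glands, taken whole from virgin FVB females, whose total RNA was depleted of ribosomal RNA and sequenced in single-end reads of 75 bases. The 3 wild-type (WT) mice were 2, 6 and 5 weeks old in the order of replicates 1, 2 and 3. The 3 Hpn-/- mice, of a line made with CRISPR/Cas9 and homozygous for the disrupted hepsin gene, were 6, 6 and 5 weeks old in the same order. All 6 mice were on the FVB background, and the labels name no other allele or treatment.

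Both strands of mitochondrial DNA are transcribed into long precursors, which are cut mainly at the tRNAs that lie between most of the protein and ribosomal RNA genes. The mRNAs are then stabilised, most of them polyadenylated, and translated by mitochondrial ribosomes inside the organelle. The proteins are built into complexes whose other subunits come from nuclear genes. Brown fat, oxidative muscle and the secretory epithelium of a lactating gland are rich in mitochondria, whereas white fat holds fewer. In whole tissue, fewer cells of a type and less RNA per cell cannot be told apart.

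The members lie on mitochondrial DNA at these positions (GENCODE M21, GRCm38), on the plus strand except where stated. mt-Nd1 (ENSMUSG00000064341.1) spans 2751 to 3707 and mt-Nd2 (ENSMUSG00000064345.1) 3914 to 4951. mt-Co1 (ENSMUSG00000064351.1) spans 5328 to 6872 and mt-Co2 (ENSMUSG00000064354.1) 7013 to 7696. They are followed by mt-Atp6 (ENSMUSG00000064357.1) at 7927 to 8607 and mt-Co3 (ENSMUSG00000064358.1) at 8607 to 9390. mt-Nd4 (ENSMUSG00000064363.1) spans 10167 to 11544, mt-Nd5 (ENSMUSG00000064367.1) 11742 to 13565, mt-Nd6 (ENSMUSG00000064368.1), on the minus strand, 13552 to 14070, and mt-Cytb (ENSMUSG00000064370.1) 14145 to 15288.

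A first result concerns which of these genes can be measured at all in the deposited counts. Only 7 of the 10 members had counts that passed the filter on low values, and the other three, mt-Co2, mt-Co3 and mt-Atp6, were at or near 0. mt-Co2, which encodes the cytochrome c oxidase subunit that receives electrons from cytochrome c, had 2 counts in WT replicate 3 and 0 in the other 5 libraries. mt-Atp6, which encodes the proton channel subunit of ATP synthase, had 14 counts in Hpn-/- replicate 3 and 0 in the other 5 libraries. mt-Co3, another core subunit of cytochrome c oxidase, had 0 counts in all 6 libraries. A count of 0 allows up to 3 counts, which is 0.175 to 0.287 CPM (counts scaled to a total of 1000000) at the depth of these libraries. This limit covers counted reads, not transcripts, and no genotype comparison was made for these 3 genes.

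These 3 genes lie in a stretch of mitochondrial DNA that is also present in the nucleus. Every 75-base window of each member was compared with all other transcripts of GENCODE M21 (GRCm38), on both strands and without mismatches. In mt-Co2 99.5% of the 610 windows were identical to a window of the pseudogene Gm28661. In mt-Atp6 99.5% of the 607 windows were shared with Gm10925, and in mt-Co3 99.9% of the 710 windows were shared with Gm28437. The first window of mt-Co2 and of its nuclear copy is shown because no letter separates them over the length of a read:
mt-Co2: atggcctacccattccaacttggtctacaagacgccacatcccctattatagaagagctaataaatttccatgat
Gm28661: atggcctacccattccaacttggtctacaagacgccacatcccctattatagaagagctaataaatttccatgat

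The nuclear copies named so far stand together on chromosome 1. A row of 7 annotated pseudogenes on its minus strand, between positions 24611535 and 24616197 (GRCm38), repeats mt-Co1 in part, mt-Co2, mt-Atp6, mt-Co3, mt-Nd3, mt-Nd4l and mt-Nd4 in part, in mitochondrial order over 4663 bases. Of these 7 copies 5 were identical to the mitochondrial gene over their whole annotated length. Counts of these 7 copies were also low, with 8 in a library as the highest value, reached by the mt-Nd3 copy Gm28438. Copies elsewhere had counts too. Gm13341 on chromosome 2, which shared 138 windows with mt-Co2, had 5, 4 and 9 counts in WT replicates 1, 2 and 3. In Hpn-/- replicates 1, 2 and 3 it had 9, 8 and 16 counts. mt-Nd3 and mt-Nd4l, mitochondrial genes of complex I outside the 10 members, had 0 counts in all 6 libraries, with 97.8% and 98.7% of their windows shared. mt-Atp8, whose 204 bases overlap mt-Atp6 by 43 bases, also had 0 counts in all 6 libraries. No annotated transcript repeats mt-Atp8, so a comparison of transcripts gives it no shared window, although its place in the order lies inside the stretch. The sources used here do not state how reads with several equal matches were handled, and the part of that handling in these counts was not tested.

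The stretch begins inside mt-Co1. The annotated copy Gm29216 starts at base 1054 of mt-Co1, and its first bases differ at 6 positions before the sequences become identical from base 1067, mitochondrial position 6394. The first 75 bases of the copy and the same bases of mt-Co1 are shown with the differing letters in capitals:
mt-Co1: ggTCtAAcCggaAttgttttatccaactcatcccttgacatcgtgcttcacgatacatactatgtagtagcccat
Gm29216: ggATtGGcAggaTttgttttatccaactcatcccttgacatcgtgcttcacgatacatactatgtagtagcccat
The annotated copy of mt-Nd4, Gm28439, is identical to mt-Nd4 up to base 876, mitochondrial position 11042, and ends there. Bases 827 to 926 of mt-Nd4 are shown with those beyond the end of the annotated copy in capitals:
mt-Nd4: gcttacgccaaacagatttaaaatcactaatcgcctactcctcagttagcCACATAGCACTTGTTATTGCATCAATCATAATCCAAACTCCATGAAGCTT
Gm28439: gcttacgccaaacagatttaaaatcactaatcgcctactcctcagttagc
Within mitochondrial positions 6394 to 11042 the annotation holds 11 whole genes, of which 9 had 0 counts in all 6 libraries, and the 11 genes together had 16 counts over the 6 libraries.

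One base separates the mt-Nd3 copy from mt-Nd3, counted from base 1 at the 5′ end of the gene. The substitution is T3C, the mitochondrial letter first, and both first windows are shown with that letter in capitals, since this was the copy with the highest counts of those on chromosome 1:
mt-Nd3: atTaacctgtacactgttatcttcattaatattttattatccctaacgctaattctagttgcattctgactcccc
Gm28438: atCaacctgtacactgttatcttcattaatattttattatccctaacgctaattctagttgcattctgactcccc
The copy Gm28438 reached 5, 8 and 5 counts in the WT libraries (replicates 1, 2 and 3, as everywhere below) and 4, 4 and 5 in the Hpn-/- libraries, whereas mt-Nd3 was at 0 in all of them.

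Sharing was partial or absent in the 7 members with counts. Shared windows made up 61.5% of mt-Nd4, 39.8% of mt-Co1, 5.71% of mt-Nd2 and 1.66% of mt-Nd5. None was shared in mt-Nd1, mt-Nd6 and mt-Cytb. Part of the mt-Co1 windows matched Gm13340 on chromosome 2, which was 97.6% identical to mt-Co1 over its 1545 bases and had 2 to 10 counts per library. Because the shared windows differ so much between genes, levels between genes are given below per 1000 unshared start positions and are set beside the values over all start positions.

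**Figure D1:**
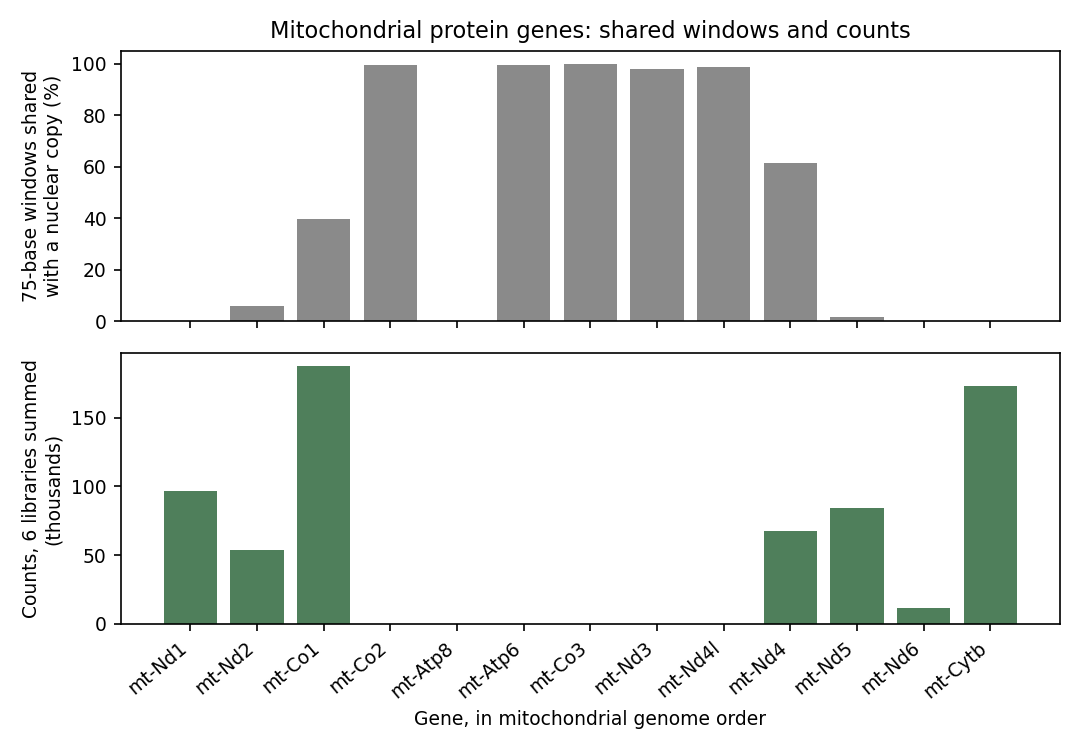
Bars give, for the 13 mitochondrial protein genes in genome order, the percentage of 75-base windows shared with a nuclear transcript (top) and the counts summed over 6 libraries in units of 1000 (bottom). The genes with over 97% of windows shared have no visible bar of counts, and neither has mt-Atp8, of which no annotated nuclear copy exists.

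The libraries held 10971661 to 18807615 counts, of which 78.0% to 84.3% lay in loci derived from ribosomal RNA, and 1798932 to 3071401 counts were left for all other genes. The 7 measured members took 4.09% to 5.71% of those other counts, with at least 1378 counts per gene and library, so that the spread between mice, and not the number of reads, set the errors given below. Hpn, the targeted gene, had 12, 6 and 4 counts in WT and 4, 3 and 5 in Hpn-/- glands, too few to check the genotype labels. All 10 luminal and 7 basal epithelial markers had counts in every library, with Krt14 at only 4 to 26 counts. White fat markers summed to 1773 to 2259 CPM and skeletal muscle markers to 33.8 to 2351 CPM, the latter with a wide spread between libraries.

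The genes of complex I, the NADH dehydrogenase that passes electrons to ubiquinone, supplied 5 of the 7 measured members. Levels are CPM scaled by TMM, in the order of replicates 1, 2 and 3. mt-Nd1, a subunit of the membrane arm near the quinone site, was at 1015, 1394 and 1508 CPM in WT and at 1133, 1053 and 1217 CPM in Hpn-/- glands. The 2 week WT library was the lowest of all 6 libraries, and the groups overlapped. Averaged by genotype, mt-Nd1 stood at 1306 ± 258 CPM (WT) and 1134 ± 82.1 CPM (Hpn-/-; SD, n = 3 for both). Its log2 fold change, Hpn-/- minus WT, was -0.20 (SE 0.192, 95% interval -0.61 to 0.20). mt-Nd2, another core subunit of the membrane arm, was at 514, 871 and 890 CPM in WT and at 636, 597 and 633 CPM in Hpn-/- glands. Its Hpn-/- libraries lay close together, between the 2 week WT library and the older WT libraries. The log2 fold change was -0.28 (SE 0.205, 95% interval -0.72 to 0.15).

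mt-Nd4 and mt-Nd5 encode subunits of the membrane arm that resemble antiporters and pump protons. mt-Nd4 was at 803, 905 and 984 CPM in WT and at 702, 724 and 968 CPM in Hpn-/- glands. Hpn-/- replicate 3 was second only to WT replicate 3, and the other Hpn-/- libraries were below all WT libraries. Its log2 fold change was -0.17 (SE 0.187, 95% interval -0.56 to 0.22). mt-Nd5 was at 931, 1295 and 1306 CPM in WT and at 900, 898 and 1093 CPM in Hpn-/- glands. All Hpn-/- libraries were below the WT libraries of 5 and 6 weeks, and the 2 week WT library lay among them. The log2 fold change of mt-Nd5 was -0.29 (SE 0.191, 95% interval -0.69 to 0.11).

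mt-Nd6, the one protein gene encoded on the opposite strand from the others, varied most between libraries. It was at 98.1, 237 and 198 CPM in WT and at 123, 150 and 117 CPM in Hpn-/- glands. The 2 week WT library was again the lowest and the 6 week WT library the highest, and all Hpn-/- libraries lay between the 2 week library and the older WT libraries. The WT mean was 178 ± 71.5 CPM and the Hpn-/- mean 130 ± 17.7 CPM (SD, n = 3 for both). The fold change of mt-Nd6 on the log2 scale was -0.45 (SE 0.285, 95% interval -1.09 to 0.20). From the lowest to the highest library mt-Nd6 differed 2.41-fold, against 1.37-fold for mt-Co1 and 1.73-fold for mt-Nd2, on the scale of log2 CPM with a prior count of 2. mt-Nd5 and mt-Nd6 converge and overlap by 14 bases at mitochondrial positions 13552 to 13565. The last 60 bases of both genes are shown, each on its own strand, with the overlap in capitals:
mt-Nd5: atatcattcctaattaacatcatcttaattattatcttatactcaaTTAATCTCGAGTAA
mt-Nd6: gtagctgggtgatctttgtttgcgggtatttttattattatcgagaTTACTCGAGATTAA
The library kit keeps the strand of the RNA, but the sources used here do not state whether the counting used it. Reads of the opposite precursor over mt-Nd6 can therefore, if strand was ignored, not be told apart from its mRNA, and its level is uncertain.

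Complexes III and IV are each represented by 1 measured member. mt-Cytb, the only mitochondrially encoded subunit of complex III, which carries electrons from ubiquinol to cytochrome c, was at 2089, 2377 and 2596 CPM in WT and at 1677, 1812 and 2474 CPM in Hpn-/- glands. The 5 week Hpn-/- library lay within the WT range and the 6 week Hpn-/- libraries below it. Its log2 fold change was -0.24 (SE 0.199, 95% interval -0.67 to 0.18). mt-Co1, the catalytic subunit of cytochrome c oxidase, was at 2241, 2492 and 2762 CPM in WT and at 2086, 2013 and 2528 CPM in Hpn-/- glands. Here too the 5 week Hpn-/- library lay within the WT range and the 6 week Hpn-/- libraries below it. Its log2 fold change was -0.18 (SE 0.187, 95% interval -0.57 to 0.22). No part of complex V could be measured among the members, since its member mt-Atp6 was at 0 in 5 libraries.

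**Figure D2:**
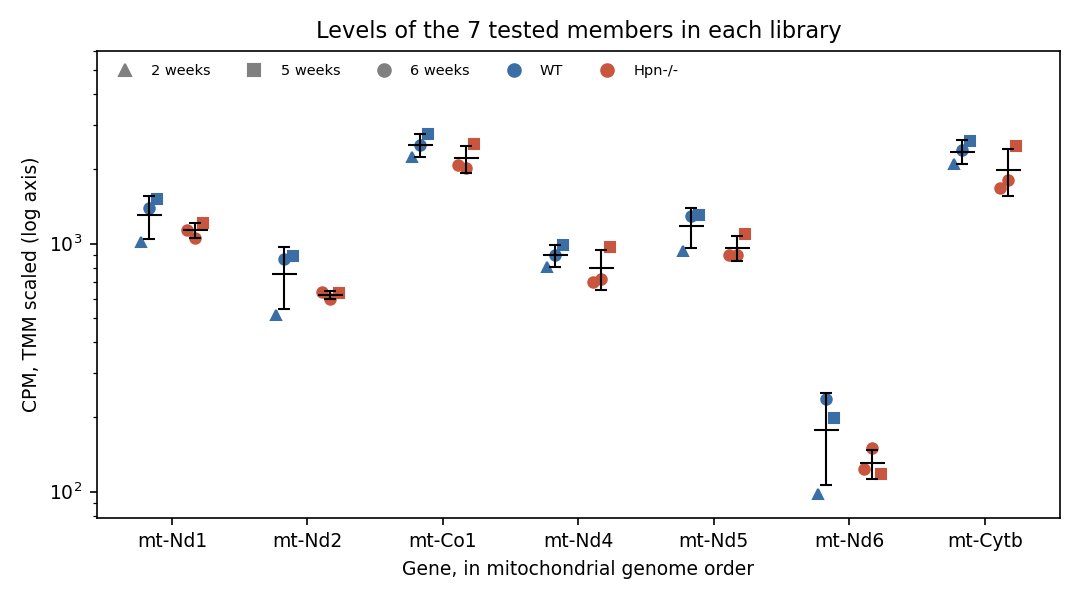
Points give the TMM-scaled CPM (log axis) of the 7 tested members in each library, coloured by genotype and shaped by age, with the mean and SD of each group of 3 in black. In mt-Nd2 and mt-Nd6 the 2 week WT library (98.1 CPM in mt-Nd6) sits below every other library, and the groups overlap in all 7 genes.

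The order of levels between genes depended on whether shared windows were counted in a gene's length. The counts are those of the whole gene, so the order without shared windows holds only if reads from them were left uncounted, which was not tested. Per 1000 unshared start positions, mt-Co1 came first, with 2823 ± 294 CPM among WT and 2496 ± 315 CPM among Hpn-/- libraries (SD, n = 3 for both). mt-Cytb followed at 2200 ± 238 and 1858 ± 398 CPM, and mt-Nd4 at 1788 ± 180 and 1590 ± 295 CPM. mt-Nd1 was at 1479 ± 293 and 1285 ± 93.0 CPM. A wide step separated these genes from mt-Nd2 at 834 ± 233 and 685 ± 24.1 CPM. mt-Nd5 was at 684 ± 124 and 560 ± 64.9 CPM and mt-Nd6 lowest at 399 ± 161 and 293 ± 39.7 CPM. Averaged over the 6 libraries, mt-Co1 was 7.69-fold above mt-Nd6 on this scale and 4.63-fold above it over all start positions.

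Each step of this order held in 6 of 6 libraries. Between neighbours, the ranges of the libraries did not touch in either genotype for mt-Nd1 above mt-Nd2 and for mt-Nd5 above mt-Nd6. For mt-Cytb above mt-Nd4 the ranges overlapped in both genotypes, so this step lay within the spread between mice although every library showed it. mt-Co1 and mt-Cytb overlapped only among Hpn-/- libraries, whereas mt-Nd4 and mt-Nd1, and mt-Nd2 and mt-Nd5, overlapped only among WT libraries. Over all start positions, the scale that fits if reads from shared windows were counted, the order changed. mt-Cytb then stood above mt-Co1, at 2200 ± 238 against 1698 ± 177 CPM in WT. By its mean, mt-Nd4 stood in the fifth place and not the third, at 688 ± 69.5 CPM in WT. This place did not hold in every library. mt-Nd2 was above mt-Nd4 in 4 of 6 libraries and mt-Nd4 above mt-Nd5 in 5 of 6, with overlapping ranges in both genotypes. Comparisons of 1 gene between libraries do not depend on this choice, because the number of windows is the same in every library.

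The relative amounts of the members differed between libraries also within a genotype. For every 100 counts of mt-Nd5 mt-Nd6 had 10.5 counts in the 2 week WT library and 10.7 in the 5 week Hpn-/- library. The other 4 libraries had more, with 18.3 and 15.1 in WT replicates 2 and 3 and 13.7 and 16.7 in Hpn-/- replicates 1 and 2. mt-Nd2 showed the same pair of libraries apart, with 24.6 and 25.6 counts per 100 counts of mt-Cytb in WT replicate 1 and Hpn-/- replicate 3 and 32.9 to 37.9 in the others. mt-Nd1 had 48.6 and 49.2 counts per 100 of mt-Cytb in these 2 libraries, against 58.1 to 67.6 in the others. The 2 libraries differed in genotype, in age (2 and 5 weeks) and in muscle markers (1437 and 33.8 CPM summed). Both had more counts in all, 14207461 and 18807615, than the others, at 10971661 to 12218216. The part of any of these in the ratios was not tested. The mt-Nd6 ratios rest on 1378 counts of mt-Nd6 in WT replicate 1 and on 2014 in Hpn-/- replicate 3. In the same 2 libraries mt-Nd2 had 7217 and 10867 counts and mt-Nd1 14257 and 20883.

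Together the members kept step with the mitochondrial ribosomal RNAs. For every 100 counts of mt-Rnr1 and mt-Rnr2, the RNAs of the small and large mitochondrial ribosome subunit, there were 9.52 ± 0.227 counts of the 7 members among WT and 9.84 ± 0.237 among Hpn-/- libraries (SD, n = 3 for both). The ratio ran from 9.26 to 10.1 over the 6 libraries, a narrower range than that of the summed members, 7247 to 10244 CPM. Ribosomal RNA was a target of the depletion before library preparation, so the ratio is not one of abundance in the tissue. mt-Rnr1 itself had a log2 fold change of -0.31 (SE 0.214, edgeR adjusted p = 0.862) and mt-Rnr2 one of -0.25 (SE 0.208, adjusted p = 0.898).

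**Figure D3:**
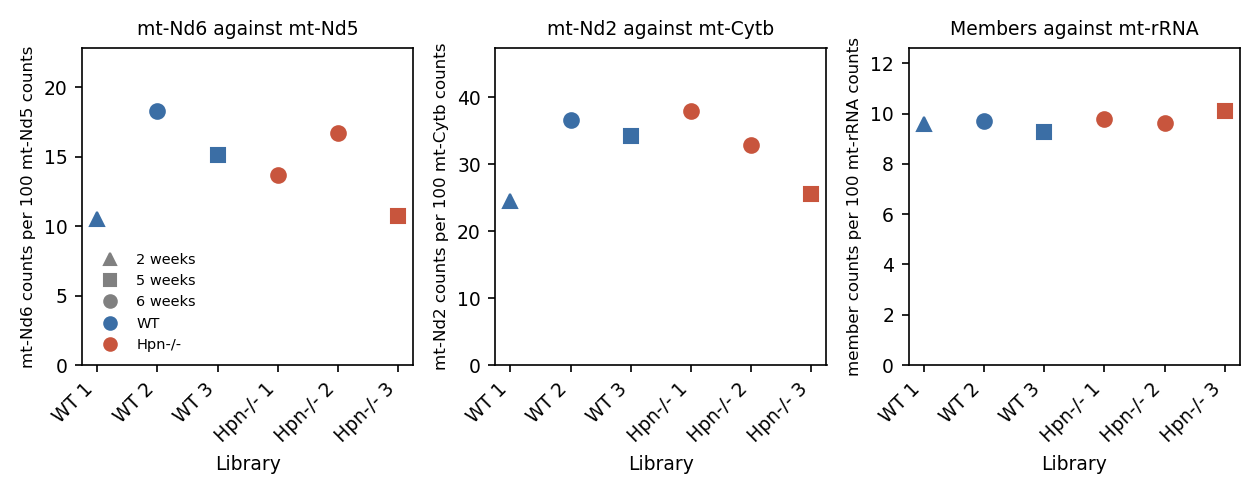
Points give, per library, the counts of mt-Nd6 per 100 counts of mt-Nd5, of mt-Nd2 per 100 counts of mt-Cytb, and of the 7 members per 100 counts of the 2 mitochondrial ribosomal RNAs. WT replicate 1 and Hpn-/- replicate 3 lie lowest in the first and second panels (10.5 and 10.7 in the first), while the third panel runs from 9.26 to 10.1.

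Between genotypes, the question was how transcript levels differ without hepsin, a serine protease of the epithelial cell surface. None of the 7 tested members passed edgeR's quasi-likelihood test, with adjusted p of 0.855 to 0.928 over 12520 genes. In that test 2 genes were called, both higher in Hpn-/- glands (0.016% of those tested), and 0 were called lower (0%). Without Hpn-/- replicate 3 the test called 89 genes higher and 111 lower, with none of the members among them. All 7 members had lower values in Hpn-/- glands, with log2 fold changes from -0.45 to -0.17 and a median of -0.24, beside a median of 0.00 over all tested genes, of which 49.1% had values below 0. At an unadjusted p under 0.05, 0 of the 7 members were lower, against 2.9% of all tested genes, and 0 were higher, against 3.98%. The smallest unadjusted p of edgeR for a member was 0.149, for mt-Nd5. With DESeq2 and limma-voom it was 0.0512 and 0.125 over the members. The groups overlapped in all 7 members, whereas 5.04% of tested genes had all Hpn-/- below all WT libraries and 5.94% had them all above. The members come from 1 genome, and all but mt-Nd6 from the same strand of it, so their common direction is not 7 separate observations. The 95% intervals reach down to -1.09 for mt-Nd6 and up to 0.22 for mt-Nd4 and mt-Co1. Differences within a gene's interval remain compatible with these 3 libraries a group.

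Age bears on this comparison, because the one 2 week library was WT. In WT glands the 2 week library was at 45.2% of the mean of the older libraries for mt-Nd6, 58.4% for mt-Nd2 and 69.9% for mt-Nd1, but at 85.3% for mt-Co1 and 84.0% for mt-Cytb. This is 1 library, with no replicate at that age. Each Hpn-/- library had a WT library of its own age, and in all 7 members every Hpn-/- library lay below it, which held for 19.1% of tested genes. mt-Nd6 in Hpn-/- replicates 1 and 2 was at 51.9% and 63.5% of the 6 week WT library, and in Hpn-/- replicate 3 at 59.4% of the 5 week WT library. mt-Nd2 was at 73.1%, 68.6% and 71.1%. The gap was smaller at 5 weeks than at 6 weeks for mt-Cytb (95.3% against 70.6% and 76.3%) and mt-Nd4 (98.4% against 77.6% and 80.0%), each age resting on a single WT library. In 4 members, mt-Nd1, mt-Nd2, mt-Nd5 and mt-Nd6, all 3 Hpn-/- libraries lay below both older WT libraries, as in 9.66% of tested genes.

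The fits that took age into account called none of the members. With age as a covariate over all 6 libraries, the log2 fold change of mt-Nd6 was -0.77 (edgeR adjusted p = 0.635). With the 5 and 6 week libraries alone and age as a covariate, the log2 fold change of mt-Nd6 was -0.78 (edgeR adjusted p = 0.0537) and that of mt-Nd2 -0.50 (adjusted p = 0.553). Without the 2 week library and with no covariate they were -0.74 (adjusted p = 0.680) and -0.50 (adjusted p = 0.987). mt-Nd6 was at -0.19 without WT replicate 2, the library in which it was highest. mt-Nd1 was at -0.09 without WT replicate 3 and at -0.36 without WT replicate 1.

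**Figure D4:**
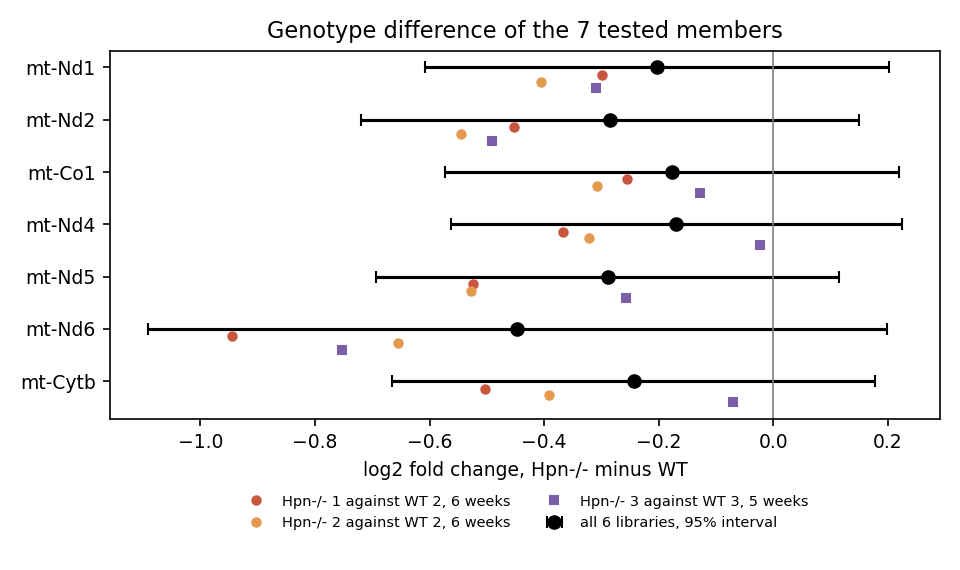
Black points give the log2 fold change of each member, Hpn-/- minus WT, over all 6 libraries with its 95% interval, and coloured points the log2 ratio of each Hpn-/- library to the WT library of its age. All black intervals cross 0, and all coloured points lie below 0, from -0.95 for mt-Nd6 to -0.02 for mt-Nd4.

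Markers of brown and beige fat were set beside the members, library by library. The 9 markers of that list had counts in every library and summed to 214, 405 and 508 CPM in WT replicates 1, 2 and 3 and to 232, 327 and 378 CPM in Hpn-/- replicates 1, 2 and 3. The summed CPM of the 7 members were 7691, 9570 and 10244 in WT and 7258, 7247 and 9031 in Hpn-/- libraries. WT replicates 2 and 3 and Hpn-/- replicate 3 were thus the highest 3 libraries by both measures. In the others the measures did not keep step. Hpn-/- replicates 1 and 2 had members at 7258 and 7247 CPM with markers at 232 and 327 CPM. The marker list also holds the respiratory chain genes Cox8b and Cox7a1. Ucp1, the uncoupling protein that defines brown fat, was at 87.7, 250 and 290 CPM in WT. In Hpn-/- glands it was at 136, 203 and 187 CPM. Ucp1 and Elovl3 (1.92 CPM) were lowest in the 2 week library. Cidea and Cox8b were not, at 64.1 and 29.6 CPM there against 46.4 and 13.4 CPM in Hpn-/- replicate 1. Ppargc1a, of the same list, had a log2 fold change of 0.49. In a fit with the brown fat score as covariate, which was added once the values were known, the log2 fold changes of the members ran from -0.25 for mt-Nd6 to -0.12 for mt-Nd1, and none was called. Skeletal muscle markers summed to 1437, 307 and 132 CPM in WT and to 2351, 584 and 33.8 CPM in Hpn-/- libraries, so that the library with the most muscle had the second lowest members. The brown fat and muscle sums overlapped between the genotypes. Among all marker lists only the T cell and B cell sums did not overlap, and no sum was tested. Summed T cell markers were at 59.7 to 77.8 CPM in WT and 77.9 to 98.1 CPM in Hpn-/- libraries, ranges that nearly touched. B cell markers were at 27.8 to 36.3 and 38.9 to 53.6 CPM. Fibroblast markers were at 1031 to 1383 and 810 to 1156 CPM, with overlap. With the muscle score as a covariate the median log2 fold change of the members was -0.27 and none was called. The part of brown fat and muscle in the member levels was not tested beyond these fits, and that of immune cells and fibroblasts was not tested.

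**Figure D5:**
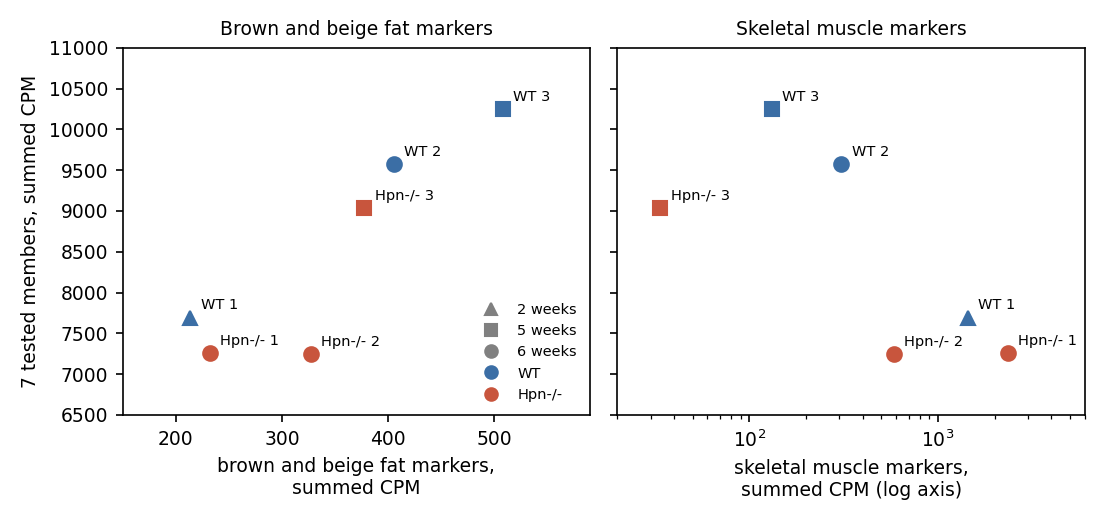
Points give, per library, the summed CPM of the 7 members against the summed CPM of brown and beige fat markers (left) and of skeletal muscle markers (right, log axis). The 3 libraries with the most brown fat marker CPM (378 to 508) have the highest members, and the muscle values span 33.8 to 2351 CPM.

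Nuclear genes that serve the same complexes gave no call either. Over 13 lists of nuclear genes for the respiratory chain, mitochondrial gene expression and mitochondrial mass, 0 of 265 tested genes passed in either direction. Only 0.016% of all 12520 tested genes passed, so 0 calls do not set these lists apart. The lists held 73 tested nuclear subunits of complexes I, III, IV and V, partners of the mitochondrial proteins. Of these, 63 were below 0 in log2 fold change (median -0.16), against 49.1% of all tested genes. At an unadjusted edgeR p under 0.05 there were 0, against 2.9% of all tested genes lower and 3.98% higher. All were measured in the same 6 libraries, so their common direction is not 73 separate observations. Complex I had 30 of 36 lower values (median -0.16), complex III 9 of 9 (median -0.17), complex IV 9 of 11 (median -0.12) and complex V 15 of 17 (median -0.15). Complex II, which has no mitochondrially encoded subunit, had 4 of 4 lower values (median -0.15). The members and these nuclear subunits differed in single libraries. As mean centred log2 CPM, WT replicate 2 was at 0.27 for the members and -0.05 for the 73 nuclear subunits, and Hpn-/- replicate 3 at 0.02 for the members and 0.24 for the nuclear subunits.

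Among the subunits of complex I, Ndufa9, Ndufb4 and Ndufb3 were at log2 fold changes of -0.32, -0.45 and -0.34. In complex II the flavoprotein gene Sdha was at -0.08, Sdhb at -0.23 and Sdhc at -0.19. Uqcrc1 and Uqcrb of complex III were at -0.33 and -0.18, Cox4i1, Cox5a and Ndufa4 of complex IV at -0.17, -0.22 and -0.19, and Atp5b, Atp5j and Atp5e of complex V at -0.18, -0.21 and -0.18. The muscle and brown fat isoforms Cox8b and Cox7a1 were at -0.36 and -0.45 with the wide SE of 0.539 and 0.485.

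Genes that act on mitochondrial DNA and RNA gave smaller medians than the members, and all values that follow are log2 fold changes that did not pass the test. Among all tested genes, 49.1% had values below 0. Transcription and maintenance of mitochondrial DNA had 10 of 16 lower values (median -0.07), with the protease gene Lonp1 at -0.11, Mterf4 at -0.43 and the transcription factor gene Tfb2m at -0.35. Processing and stability of mitochondrial RNA had 14 of 18 lower values (median -0.15), with Lrpprc, whose product stabilises mitochondrial mRNAs, at -0.16, Tbrg4 at -0.32 and the RNase P gene listed as 1110008L16Rik at -0.46. Of 80 mitochondrial ribosomal protein genes 57 had lower values (median -0.08). At an unadjusted edgeR p under 0.05, 2 of the 80 were lower and 1 higher, against 2.9% and 3.98% of all tested genes. Mrps34 and Mrps9 were at -0.48 and -0.41, Mrpl50 at 0.46 and the most abundant, Mrpl12, at -0.09. Translation and insertion factors had 13 of 14 lower values (median -0.16), with Letm1 at -0.16, the elongation factor gene Tufm at -0.27 and the release factor gene Mtrf1 at -0.65. Assembly factors of complexes I and IV had 18 of 28 lower values (median -0.07), with 1 lower and 1 higher at an unadjusted edgeR p under 0.05. Coa5 was at -0.10, Tmem126b at -0.62, Ndufaf3 at 0.61 and Cox10 at -0.39.

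Regulators of mitochondrial biogenesis had 6 of 10 lower values (median -0.04), and Ppargc1a, the coactivator PGC-1alpha, was at 0.49, Gabpb1 at 0.34 and Yy1 at -0.04. Markers of mitochondrial mass and import had 16 of 20 lower values (median -0.17), with the prohibitin gene Phb2 at -0.21 and the import receptor gene Tomm20 at 0.25. Among all tested genes the share of lower values was 49.1%. Exons of Ndufa9, Uqcrb, Cox4i1, Cox5a, Atp5j, Mterf4, Tbrg4, 1110008L16Rik, Mrpl12, Mrps34, Ndufaf3, Cox10, Gabpb1 and Phb2 overlap exons of another annotated gene, so their counts are uncertain.

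The nuclear genes whose pattern over the 6 libraries was most like that of the members were ranked by the root mean square difference between centred log2 CPM values. Of 6580 named nuclear genes with a mean of at least 5 CPM, the closest were Fam210a (0.0528), the mitochondrial co-chaperone gene Dnaja3 (0.0592) and the inner membrane protein gene Ghitm (0.0653). Next came Mrps2 (0.0663), Bckdhb (0.0683), Slc25a17 (0.0716) and Mrpl15 (0.0739), then Hadhb (0.0742), Coq5 (0.0761) and Apmap (0.0786). Among the members themselves the difference from the mean pattern ran from 0.0333 for mt-Nd5 to 0.283 for mt-Nd6. All 10 had lower values in Hpn-/- glands, a direction that follows from how they were chosen. Exons of Fam210a, Dnaja3 and Apmap overlap those of another gene.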

How the data were processed

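For 6 libraries of mammary gland RNA the authors deposited raw counts per gene, with no normalization. Per the submitters' processing notes bcl2fastq, Trimmomatic, STAR 2.6.0c, featureCounts and DESeq2 were used with the build GRCm38. Their annotation, strand setting and handling of multiple matches were not given in the sources consulted. Each of the 55450 gene identifiers matched GENCODE M21, which supplied symbols, coordinates and transcript sequences.

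Libraries were grouped by the titles into 3 WT and 3 Hpn-/- samples. Nothing says whether the samples are separate litters, and p-values measure only the spread between them. Libraries of 1 genotype differed by more than counting noise, the ratio of chi-square to its degrees of freedom being 6.72 to 32.1 over the pairs. Analysis used R 4.3.3 with edgeR 4.0.16, filterByExpr (minimum count 10, minimum total 15), TMM factors of 0.914 to 1.24 and a robust quasi-likelihood fit with genotype as the only term over 12520 genes. Two-sided p-values were adjusted by Benjamini-Hochberg and called under 0.05. The common biological coefficient of variation was 0.154. The test was checked on simulated counts. Age, muscle, block, scaling, filter, DESeq2 1.42.0 and limma-voom (limma 3.58.1) alternatives were run.

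The members and lists were chosen with earlier results of these data known. Named genes are the members, the most abundant gene and the 2 or 3 of smallest p of each list, and the 10 nuclear genes of most similar pattern. Some genes that this rule names are not reported here. Intervals of fold changes are 95% intervals from the SE and the fitted degrees of freedom. Loci derived from ribosomal RNA are the annotated ribosomal RNA genes and Gm42418, Gm26917, AY036118, CT010467.1, Mir6236, Lars2, Gm15564 and Gm23935.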

Additional observations from a re-analysis of the deposited data

How the results depend on the processing

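Under all 20 alternatives the 7 tested members kept log2 fold changes below 0 and none was called, in 140 of 140 combinations. The alternatives refit the same 6 libraries or some of them, so the combinations are not separate observations. The smallest edgeR adjusted p was 0.0537, for mt-Nd6 among the 5 and 6 week libraries with age as a covariate. The median of the members ran from -0.36 without WT replicate 1 to -0.16 without WT replicate 3. It was -0.16 with the brown fat score added once the values were known. Counts of called genes over the whole table moved more, from 2 higher and 0 lower. There were 76 higher and 24 lower genes with no count filter, 8 higher with DESeq2, 11 higher and 3 lower with the muscle score as a covariate, 4 higher with the brown fat score, 0 higher with age as a covariate in 6 libraries and 3 higher and 1 lower with age among the 5 and 6 week libraries. Leaving out 1 library gave 0 to 89 higher and 0 to 111 lower genes, the highest without Hpn-/- replicate 3. The replicate block gave 8 higher and 1 lower genes. Deviations of same-numbered libraries correlated at 0.167, 0.0732 and 0.368. For WT replicates 1 and 3 this was the best match. WT replicate 2 correlated better with Hpn-/- replicate 1, at 0.127. Same-numbered libraries were thus not the best match throughout, and the main fit did not take the numbers as pairs. With loci derived from ribosomal RNA left out, the members summed to 53100 (WT) and 45194 (Hpn-/-) CPM, in place of 9168 and 7845 CPM, because fewer counts made up the total. Scaling moved the median of all genes by at most 0.02. Depth did not limit the 7 tested members, each with over 1000 counts in every library, whereas the 3 members at or near 0 allowed no comparison.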

Other observations

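Mitochondrial tRNA genes, which punctuate the precursors between most of the protein genes, were almost without counts. Of the 22 annotated tRNA genes 15 had 0 counts in all 6 libraries, and the highest value was 46 counts of mt-Ti in WT replicate 3. mt-Ti, which shares bases with the end of mt-Nd1, reached 25, 27 and 46 counts in the WT libraries and 33, 19 and 36 in the Hpn-/- libraries. The tRNA genes are at most 75 bases long, the length of a read, so these counts give no tRNA level. The ratio of mt-Rnr2 to mt-Rnr1 counts was 1.28 ± 0.0981 among WT and 1.31 ± 0.0413 among Hpn-/- libraries (SD, n = 3 for both), with 1.39 in the 2 week library and 1.20 to 1.34 in the others.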
